A study of Homo sapiens with 45 samples.

Results

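Of 28278 gene names in the count table of a HCT116 knockdown study, 478 were written as ZNF followed by a number, and 226 of these lay outside chromosome 19 and the sex chromosomes. These 226 zinc finger genes were chosen by name and by their RefSeq position on GRCh38 (chromosomes 1 to 18 and 20 to 22), not by any measured value. Another 242 lay on chromosome 19 and 10 on X or Y. RefSeq lists 225 of the 226 as protein coding, and the name ZNF806 matched a pseudogene entry. HCT116 is a human colorectal carcinoma line, here treated for 72 hours with siRNA at 25 nM. Total RNA was sequenced from 4 libraries of the nontargeting siRNA siNTC5, 4 of an siRNA against HNRNPK (siHNRNPK), and 2 of a nontargeting siRNA labelled Scramble. In both the siNTC5 and the siHNRNPK group, libraries 1 and 2 were made with a TruSeq kit and libraries 3 and 4 with a Ligation kit. Both Scramble libraries were made with the TruSeq kit after another RNA purification, and were counted in tables of their own. ChIP domain lists of lamin B1, H3K9me3 and H3K27me3 in control and HNRNPK siRNA cells and of H3K9me2 in control cells were used. There was 1 list per antibody and siRNA for all ChIP replicates of that group, so no list has a replicate of its own.

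Most ZNF genes encode C2H2 zinc finger proteins, in which a row of small zinc-binding fingers reads a DNA sequence. Many carry a KRAB domain that recruits TRIM28 (KAP1), which in turn brings SETDB1, the enzyme that writes H3K9me3, and HP1 proteins that bind it. Many of their genes arose by local duplication, lie in clusters, and are themselves covered by H3K9me3. The largest clusters lie on chromosome 19, and the genes described here sit in smaller clusters or alone. HNRNPK is a KH-domain protein that binds C-rich RNA and DNA.

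The 8 libraries held 12107280 to 23633851 gene counts and the Scramble libraries 55007171 and 59209169. HNRNPK itself fell from 884 ± 78.0 CPM (gene counts scaled to a common library size, mean ± SD, n = 4) to 199 ± 45.3, a log2 change of -2.17 ± 0.06 (SE), and the groups did not overlap (two-sided exact permutation p = 0.02857, the smallest that 4 against 4 libraries can give). Summed CPM of 12 epithelial markers ran from 2860 to 3341 in siNTC5 and from 4561 to 5656 in siHNRNPK, with 9 tested, 6 higher and 2 lower. Summed fibroblast markers ran from 44.6 to 73.3 and from 75.5 to 122.6, with 7 of 8 under 1 CPM in every library and 2 at 0. Immune markers ran from 18.1 to 24.4 and from 22.4 to 28.1, with 6 of 7 under 1 CPM and 2 at 0. Endothelial markers ran from 0.876 to 1.47 and from 2.31 to 3.89, with 4 of 5 under 1 CPM. The part of these shifts in the results below was not tested. In bulk RNA, fewer cells of a type and less RNA per cell cannot be told apart. No label says that libraries of a group came from separate cultures, so p-values measure the spread between these libraries, which may be technical.

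The 250 bases before the RefSeq start (GRCh38.p14) of 5 of these genes are shown, chosen after their values were seen because they are the ends of the range described below: the steepest rise (ZNF300), a rise and a gene at 0 counts inside the same lamin B1 domain cluster (ZNF26 and ZNF10), the top rise of the chromosome 10 cluster (ZNF487) and the largest fall (ZNF862). Each is written 5′ to 3′ on the gene's own strand, and capitals mark CpG.
ZNF300, chr5:150904981-150905230, minus strand: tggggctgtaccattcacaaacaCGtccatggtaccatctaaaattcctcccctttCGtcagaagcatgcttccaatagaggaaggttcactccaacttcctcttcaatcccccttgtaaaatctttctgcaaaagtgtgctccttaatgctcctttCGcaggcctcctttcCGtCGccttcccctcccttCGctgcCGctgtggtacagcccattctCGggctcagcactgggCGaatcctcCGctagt
ZNF26, chr12:132986117-132986366, plus strand: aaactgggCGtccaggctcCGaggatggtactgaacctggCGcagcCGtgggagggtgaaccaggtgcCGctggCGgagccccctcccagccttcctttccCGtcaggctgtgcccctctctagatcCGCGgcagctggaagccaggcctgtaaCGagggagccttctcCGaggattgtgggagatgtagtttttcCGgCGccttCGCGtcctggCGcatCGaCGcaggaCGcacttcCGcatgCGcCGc
ZNF10, chr12:133130377-133130626, plus strand: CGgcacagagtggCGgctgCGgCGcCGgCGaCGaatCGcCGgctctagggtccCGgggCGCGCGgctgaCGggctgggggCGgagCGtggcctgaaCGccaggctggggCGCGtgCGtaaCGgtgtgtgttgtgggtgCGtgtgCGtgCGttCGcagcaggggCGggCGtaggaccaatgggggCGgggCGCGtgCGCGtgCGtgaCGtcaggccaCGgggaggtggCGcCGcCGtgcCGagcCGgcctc
ZNF487, chr10:43436598-43436847, plus strand: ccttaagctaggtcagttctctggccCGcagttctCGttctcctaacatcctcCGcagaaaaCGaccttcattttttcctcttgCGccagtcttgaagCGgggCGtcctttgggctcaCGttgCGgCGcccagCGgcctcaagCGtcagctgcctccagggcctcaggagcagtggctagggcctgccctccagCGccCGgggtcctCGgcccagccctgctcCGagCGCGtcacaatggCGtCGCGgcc
ZNF862, chr7:149838125-149838374, plus strand: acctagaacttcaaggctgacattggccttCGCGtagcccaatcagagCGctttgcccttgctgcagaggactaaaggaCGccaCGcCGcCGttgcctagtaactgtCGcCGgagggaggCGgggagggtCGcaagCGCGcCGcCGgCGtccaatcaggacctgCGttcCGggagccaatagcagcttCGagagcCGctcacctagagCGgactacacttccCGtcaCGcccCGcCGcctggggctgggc
CpG counts in these windows were 10 for ZNF300, 22 for ZNF26, 40 for ZNF10, 21 for ZNF487 and 25 for ZNF862. The C-rich heptamer CCCTCCC, searched on both strands, was found on the gene's strand in ZNF300, on both strands in ZNF26 and on the opposite strand in ZNF862.

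After HNRNPK knockdown these genes rose more often than they fell. Of the 226, 185 had enough counts to be tested, and 127 of those passed an adjusted p of 0.05 in edgeR's quasi-likelihood test, against 71.5% of all 13933 genes tested. Of the 185, 92 rose (49.7%, with 35.5% of all genes rising) and 35 fell (18.9%, with 36.1% of all genes falling). So the share called was near that of all genes, while the split was 92 to 35 in place of near even. The median log2 fold change was 0.20, beside -0.004 over all genes tested, with quartiles of -0.15 and 0.52 beside -0.43 and 0.38. Of the 127, 65 were under 0.5 in absolute log2 fold change. The same share over all called genes was not counted, so this is not read as a trait of these genes. Only 8 rose and 5 fell by a log2 fold change of at least 1, with 7.47% and 8.28% of all genes. Those 8 include ZNF300, ZNF474, ZNF648 and ZNF843, which stood low in siNTC5, at means of 0.15, 0.33, 0.51 and 0.47 CPM. Of the 185, 180 passed the count filter's cutoff in all 8 libraries. Another 3 passed it in all 4 siHNRNPK but not in all 4 siNTC5 libraries, and 1 the other way round. ZNF300 and ZNF474 passed it in no siNTC5 library, so these 2 rises had to differ. The 4 siHNRNPK libraries lay wholly above the 4 siNTC5 libraries for 70 of the tested genes (28.5% of all genes did so) and wholly below for 25 (28.0% of all genes).

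Summed CPM over the 185 tested genes showed the same upward shift in every library. It was 5721, 5758, 5706 and 5792 in siNTC5 libraries 1 to 4 and 6718, 6820, 6748 and 6777 in siHNRNPK libraries 1 to 4. Fitted in each kit alone, the TruSeq libraries gave 74 higher and 24 lower of 187 tested (median 0.22), where 57.8% of all genes were called, 28.5% higher and 29.2% lower. The Ligation libraries gave 86 higher and 34 lower of 185 tested (median 0.17), where 68.1% of all genes were called, 33.8% higher and 34.3% lower. All 126 called genes that both kit fits could test had the same sign in both. They were chosen by a joint fit of these same libraries, so that agreement was largely set in advance. A kit by treatment term in edgeR was called for 0 of the 185 genes (0.129% of all genes), with 14 of them at an unadjusted p under 0.05 and a smallest adjusted p of 0.1813. DESeq2 was not run on that term.

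The 2 sets of nontargeting controls differed as widely. Between Scramble and siNTC5, 62 of 192 genes tested were higher in Scramble and 63 lower, with a median of -0.002. That is 65.1% of the zinc finger genes, beside 68.6% of all genes (35.1% higher and 33.5% lower). Purification, count table and siRNA cannot be told apart in this comparison. Its values are given below beside the genes they touch. With the Scramble libraries added as controls, 73 of 187 zinc finger genes rose and 27 fell after knockdown, while 51.7% of all genes were called, 24.8% higher and 27% lower.

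ZNF300 showed the steepest rise. ZNF300 (chromosome 5, 150894399 to 150904980, minus strand) encodes a KRAB zinc finger protein. Its raw counts were 1, 3, 3 and 4 in siNTC5 libraries 1 to 4 and 37, 40, 28 and 21 in siHNRNPK libraries 1 to 4, so the groups did not overlap. In CPM this was 0.151 ± 0.073 and 2.38 ± 0.51 (SD, n = 4), which gave 3.94 ± 0.37 as log2 fold change at adjusted p = 1.99e-08. The ratio of the summed counts, 126 against 11, was 16.1 with an exact 95% interval of 8.71 to 33.1 that covers counting error only. Both Scramble libraries were at 0 counts, which allows up to 3 counts in each. No siNTC5 library reached the filter's cutoff, so ZNF300 entered the test through the siHNRNPK libraries and had to differ. The whole gene lay in lamin B1, H3K9me2 and H3K9me3 domains in control cells, and in knockdown cells the lamin B1 domain was gone and the H3K9me3 domain remained. IRGM overlaps ZNF300, and without the strand counted the reads of both cannot be told apart. ZNF474 (chromosome 5) entered the test the same way, with counts of 6, 14, 5 and 1 against 19, 27, 15 and 33 and a log2 fold change of 2.35 ± 0.42. The groups of ZNF474 did not overlap in CPM (0.055 to 0.585 against 1.25 to 2.72), and it lay in none of the domains. ZNF474-AS1 overlaps it, and it was named after its values were seen.

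Among genes with more counts, and with groups that did not overlap, ZNF721 rose most. ZNF721, on chromosome 4, stood at 40.6, 46.2, 52.8 and 52.3 CPM in siNTC5 libraries 1 to 4 and at 108, 126, 132 and 127 CPM in siHNRNPK libraries 1 to 4. Every siHNRNPK library was thus above 100 CPM and every siNTC5 library under 60, at a log2 fold change of 1.37 ± 0.06 with adjusted p = 6.496e-13, and Scramble differed from siNTC5 by 0.02. ABCA11P overlaps ZNF721. ZNF487, on chromosome 10, read 1.90, 1.84, 1.73 and 2.03 CPM in siNTC5 and 3.43, 4.23, 5.82 and 4.70 CPM in siHNRNPK. Its lowest siHNRNPK library was above its highest siNTC5 library, and the log2 fold change was 1.25 ± 0.19.

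The next rises were near a doubling in level or less. ZNF79 rose from 7.11 ± 0.46 to 14.5 ± 1.24 CPM (log2 fold change 1.03 ± 0.10). ZNF697 rose from 15.4 ± 2.13 to 31.1 ± 2.93 CPM (1.01 ± 0.08), but it was also higher in Scramble than in siNTC5 by 1.18, and with Scramble added as control its change was 0.60 and no longer called (adjusted p = 0.1245). ZNF76, a relative of ZNF143 that activates small nuclear RNA promoters, rose from 42.3 ± 1.26 to 82.6 ± 5.00 CPM (0.96 ± 0.06), while Scramble lay below siNTC5 by 0.88. ZNF670 (0.93 ± 0.09), ZNF704 (0.91 ± 0.06), ZNF267 (0.90 ± 0.07), ZNF281 (0.88 ± 0.06) and ZNF26 (0.87 ± 0.12) complete the 10 largest rises. ZNF281, which binds GC-rich promoters and is known from epithelial-mesenchymal transition, went from 58.7, 65.7, 62.8 and 63.9 CPM to 107, 124, 116 and 115 CPM. No siHNRNPK library of ZNF281 was under 100 CPM.

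The largest fall among the 185 tested zinc finger genes outside chromosome 19, with or without overlapping groups, was that of ZNF862, on chromosome 7. Its siNTC5 libraries read 9.25, 10.6, 11.4 and 12.4 CPM and its siHNRNPK libraries 5.14, 4.23, 3.04 and 3.05 CPM. The groups were apart by a wide gap, with -1.47 ± 0.16 as log2 fold change at adjusted p = 1.309e-07, -1.08 in TruSeq and -1.98 in Ligation libraries, and Scramble differed from siNTC5 by -0.02. ZNF395, a DNA-binding protein induced in low oxygen, read 105, 94.6, 108 and 107 CPM in siNTC5 and 46.4, 39.5, 42.6 and 44.1 CPM in siHNRNPK. All siHNRNPK libraries of ZNF395 lay under 50 CPM, and the log2 fold change was -1.26 ± 0.06 at adjusted p = 1.964e-12.

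ZNF213, whose protein carries a SCAN and a KRAB domain, fell from 12.4 ± 2.18 to 5.44 ± 1.16 CPM (log2 fold change -1.19 ± 0.13). ZNF25 fell from 10.1 ± 1.49 to 4.90 ± 0.85 CPM (-1.02 ± 0.14). Scramble was higher than siNTC5 by 0.58 for ZNF213 and by 0.37 for ZNF25, the direction opposite to the knockdown. The other falls among the 10 largest with groups that did not overlap were ZNF658 (-0.97 ± 0.16), ZNF133 (-0.96 ± 0.11), ZNF764 (-0.82 ± 0.16), ZNF511 (-0.72 ± 0.11), ZNF48 (-0.70 ± 0.08) and ZNF619 (-0.55 ± 0.13). ZNF511 overlaps TUBGCP2 and ZNF48 overlaps SEPTIN1. With the TruSeq libraries alone, ZNF619 was no longer called (-0.36, adjusted p = 0.09819).

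**Figure D1:**
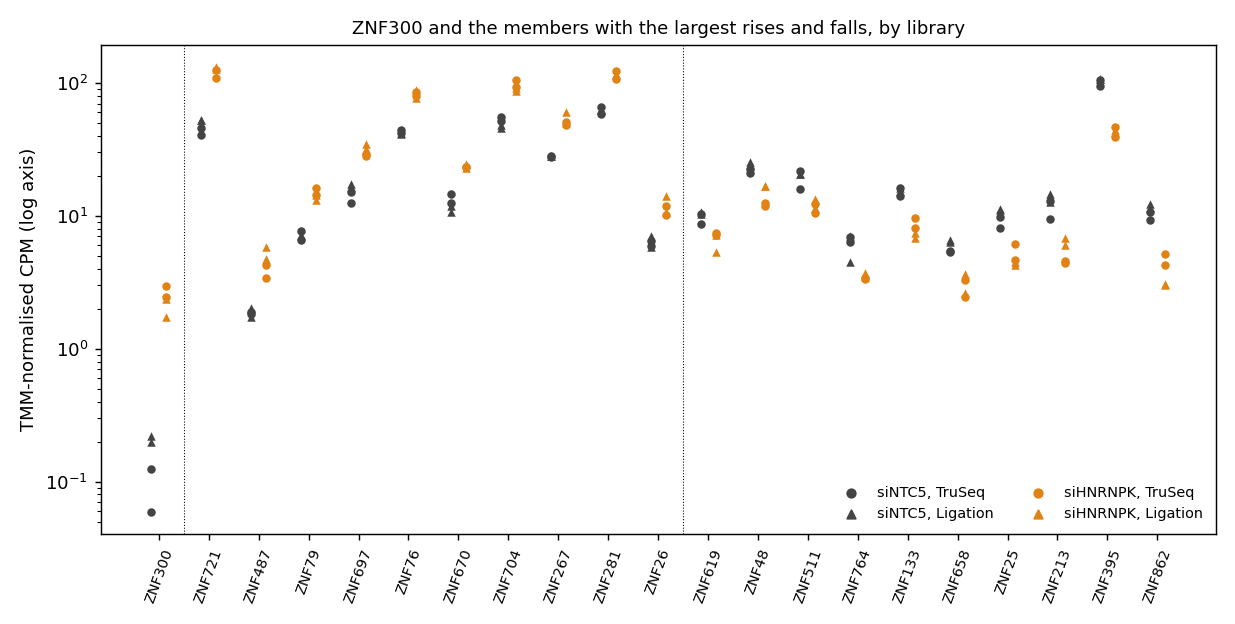
CPM on a log axis for ZNF300 (left of the first dotted line), the 10 largest rises (between the lines) and the 10 largest falls (right). Each point is 1 library, circles TruSeq and triangles Ligation, grey siNTC5 and orange siHNRNPK; the 20 rises and falls were picked among genes whose groups do not overlap, which leaves out larger falls such as ZNF467 and ZNF768.

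Clusters were defined as at least 3 of the 226 genes on a chromosome with no gap over 500 kb between neighbours. There were 17 clusters holding 96 genes. Of the 74 clustered genes tested, 39 rose and 15 fell (52.7% and 20.3%, median 0.26), and of the 111 tested genes outside clusters 53 rose and 20 fell (47.8% and 18.02%, median 0.18). The difference between the 2 sets was not tested. Calls within clusters were often mixed: 10 held genes called in both directions, 5 held rises only, 0 held falls only and 2 held no called gene. Over all genes tested, 35.5% rose and 36.1% fell, and whether clusters are more mixed than that gives was not tested. Only 13 of the 17 had at least 3 tested genes. The 2 with no called gene had 1 and 2 tested. The clusters of chromosome 4 and of chromosome 7 at 6615610 to 6706947, with rises only, had 2 tested each.

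The cluster on chromosome 10 (43436848 to 43648881) held 4 genes, all under H3K9me3 in control cells. ZNF487 rose as given above, ZNF485 rose from 7.05 ± 0.60 to 12.7 ± 1.14 CPM (log2 fold change 0.84 ± 0.11) and ZNF239 from 7.77 ± 1.62 to 12.4 ± 0.92 CPM (0.67 ± 0.12). ZNF32, the remaining gene, fell from 6.51 ± 0.87 to 4.65 ± 0.67 CPM (-0.48 ± 0.15), and its groups overlapped. ZNF485, ZNF239 and ZNF32 also lay wholly in H3K27me3 domains, so genes of the same pair of marks moved in both directions.

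The cluster of chromosome 16 at 3112586 to 3443504 had 6 genes, all called. ZNF263, a SCAN and KRAB protein, rose from 46.9, 50.7, 44.4 and 47.2 CPM in siNTC5 to 76.4, 79.2, 82.2 and 87.7 CPM in siHNRNPK. The groups of ZNF263 were well apart, at a log2 fold change of 0.78 ± 0.06. ZNF200 (0.52 ± 0.09), ZNF597 (0.46 ± 0.10) and ZNF174 (0.23 ± 0.10) also rose. These 4 were the genes of the cluster under H3K9me3. ZNF213 (-1.19) and ZNF205 (-0.35 ± 0.15) fell, and neither lay in any of the domains. The calls of ZNF174 and ZNF205 were near the threshold. With a replicate block in place of kit, ZNF174 had an adjusted p of 0.05106. The call of ZNF174 was lost in 5 of the 8 fits that left out 1 library (siNTC5 1, 2 and 3, siHNRNPK 1 and 3), and that of ZNF205 in 4 (siNTC5 1 and 3, siHNRNPK 2 and 4). Without siHNRNPK replicate 2, ZNF205 stood at -0.20 (adjusted p = 0.2082).

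The cluster at 30378312 to 31917357 on the same chromosome had 14 genes, 13 tested. ZNF267 (0.90 ± 0.07), ZNF646 (0.70 ± 0.07), ZNF689 (0.48 ± 0.10) and ZNF720 (0.30 ± 0.12) rose. ZNF843 was called higher at 0.468 ± 0.189 against 0.996 ± 0.472 CPM, with overlapping groups. The groups of ZNF720 overlapped too, and its call was lost in 5 of the 8 fits that left out 1 library (siNTC5 2 and 3, siHNRNPK 1, 2 and 3), at 0.21 to 0.30 with adjusted p of 0.05283 to 0.129. It was also lost without kit, without a filter, with DESeq2 (adjusted p = 0.05909), with Scramble added and with Ligation alone (0.10, adjusted p = 0.5739). Leaving out siHNRNPK replicate 4 took ZNF843 to 0.86 (adjusted p = 0.09271) and leaving out siHNRNPK replicate 2 to 0.93 (adjusted p = 0.05635). ZNF764 (-0.82), ZNF48 (-0.70) and ZNF768 (-0.66 ± 0.08) fell. ZNF768 read 48.1, 37.1, 56.8 and 58.4 CPM in siNTC5 and 24.9, 26.96, 37.6 and 37.5 CPM in siHNRNPK. The ranges of ZNF768 overlapped between kits but not within a kit. ZNF629 (0.07), ZNF668 (0.18), ZNF688 (-0.48), ZNF747 (-0.47) and ZNF771 (-0.38) were not called. ZNF646 overlaps ZNF668, and ZNF747 overlaps ZNF768. Of these 14 genes, 12 were under 50% in every list, and ZNF267 and ZNF720 were the ones under H3K9me3.

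On chromosome 7, 10 genes between 149069641 and 149867479 were all tested. ZNF398 (0.55 ± 0.07), ZNF212 (0.46 ± 0.09), ZNF282 (0.29 ± 0.07), ZNF783 (0.28 ± 0.11) and ZNF746 (0.23 ± 0.07) rose. ZNF746 (PARIS), a substrate of parkin, went from 26.3 ± 3.19 to 30.7 ± 1.26 CPM with overlapping groups. ZNF862 (-1.47), ZNF467 (-1.38 ± 0.21) and ZNF786 (-0.43 ± 0.11) fell. ZNF467 read 4.21, 3.09, 7.86 and 7.94 CPM in siNTC5 and 0.725, 2.08, 3.37 and 2.72 CPM in siHNRNPK. Its groups overlapped between kits, both kits gave -1.38, and Scramble lay above siNTC5 by 1.86. ZNF425 (0.54 ± 0.27) and ZNF777 (0.10 ± 0.09) were not called. The call of ZNF783 was lost without siNTC5 2 or 3 or siHNRNPK 1 or 4. With Scramble added, ZNF282 turned to -0.06, ZNF746 stood at 0.07 and ZNF783 at 0.54, none of them called.

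The chromosome 1 cluster (246945546 to 247331867) had 5 genes, all tested. ZNF670 rose from 14.6, 12.5, 11.9 and 10.6 CPM in siNTC5 to 23.5, 23.4, 24.6 and 22.8 CPM in siHNRNPK. All siHNRNPK libraries of ZNF670 were above 20 CPM and no siNTC5 library was. ZNF669 (0.70 ± 0.11) and ZNF695 (0.48 ± 0.12) rose, ZNF124 was not called (-0.15 ± 0.10), and ZNF496, a KRAB and SCAN protein, fell from 15.8 ± 0.99 to 12.9 ± 0.79 CPM (-0.29 ± 0.09) while Scramble lay above siNTC5 by 2.60. The read-through gene ZNF670-ZNF695 overlaps both ZNF670 and ZNF695. ZNF695 was no longer called in TruSeq libraries alone (0.39, adjusted p = 0.06884).

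In the remaining clusters the gene that changed most was ZNF621 (0.61 ± 0.05) in the chromosome 3 cluster at 40477122 to 40539782, where ZNF620 rose by 0.56 ± 0.10 and ZNF619 fell by 0.55. ZNF107 led the chromosome 7 cluster at 64045434 to 65401136 (0.64 ± 0.06), though Scramble lay below siNTC5 by 1.13. ZNF394 led the chromosome 7 cluster at 99472890 to 100082577 (0.62 ± 0.08), ZNF16 that of chromosome 8 at 144720909 to 144950880 (0.52 ± 0.09), and ZNF782 that of chromosome 9 (0.82 ± 0.16), where ZNF510 rose and ZNF367 fell (-0.34 ± 0.09). ZNF680 fell in the ZNF107 cluster. On chromosome 16 at 71447597 to 71895256, ZNF23 rose by 0.69 ± 0.07 and ZNF19 fell (-0.52 ± 0.21, with overlapping groups). On chromosome 18, ZNF397 fell (-0.39 ± 0.06) and ZNF24, a SCAN protein, rose from 172 ± 2.05 to 241 ± 6.18 CPM (0.48 ± 0.04).

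**Figure D2:**
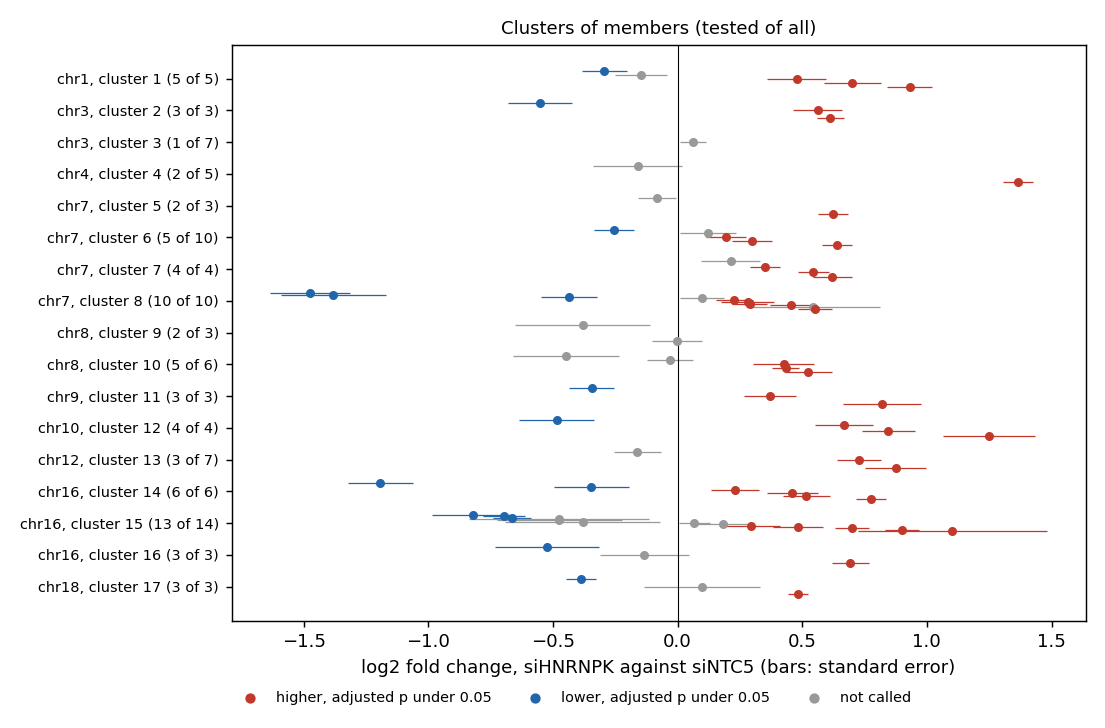
Log2 fold change of each tested gene in the 17 clusters, with its standard error; labels give the chromosome, a cluster number in genome order, and the genes tested of all. Red and blue points stand for genes called higher and lower, and 10 of the 17 rows hold both colours.

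Whole chromosomes, with fewer genes in each, differed in the sign of their median, but none held more falls than rises. The median was below 0 on chromosomes 4 (-0.08), 8 (-0.03), 10 and 15 (-0.12), and above 0 on every other chromosome with tested genes of this set. Chromosome 4 had 1 rise and 1 fall of 4 tested, beside 35.5% and 36.7% over all its tested genes. Chromosome 15 had 2 rises and 2 falls of 6 tested, beside 35.97% and 35.55%. On chromosome 8, 4 of 13 tested rose and 2 fell, beside 37.2% and 33.6% over all its tested genes. Chromosome 7 carried 33 of the 226 genes, of which 25 were tested, 14 rose and 5 fell (median 0.23), beside 37.8% higher and 34.6% lower over all its tested genes (median 0.03). Chromosome 16 carried 30, of which 28 were tested, 12 rose and 8 fell (median 0.15), beside 27.7% and 42.4% (median -0.12). Chromosome 1 carried 20, of which 18 were tested, 10 rose and 3 fell (median 0.41), beside 38.7% and 33.8% (median 0.04). Chromosome 10 had 5 rises and 5 falls of 12 tested (median -0.08), beside 39.0% and 33.8% (median 0.04).

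The genes were grouped by the domains of control cells, a gene being counted in a domain where at least 50% of its body was covered. Whether the states differ from each other was not tested. Of the 226, 79 lay in H3K9me3 domains of control cells. Of these, 52 were tested, 34 rose (65.4%) and 4 fell (7.69%), with a median of 0.40. The rises include ZNF300, which had to differ once it entered the test. Over all genes under H3K9me3 in control cells, chromosome 19 included, 49.1% rose and 17.0% fell (median 0.29). The 4 falls were ZNF32, ZNF691 (-0.42), ZNF397 (-0.39) and ZNF680 (-0.26), named after their values were seen.

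Another 125 of the genes were under the 50% limit in each of the lamin B1, H3K9me2, H3K9me3 and H3K27me3 lists (113 had no overlap with any of them). Of the 125, 118 were tested, 47 rose (39.8%) and 28 fell (23.7%), with a median of 0.12, beside 34.4% and 38.1% of all such genes and a median of -0.03. The rises include ZNF474, which entered the test as ZNF300 did. The 118 tested genes are taken up next. They held 28 of the 35 falls and were 118 of the 185 genes tested. ZNF395, ZNF213, ZNF658 and ZNF133 were among these falls, and so was ZNF25, which had 43.0% of its body in H3K9me3.

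H3K27me3 domains, the mark of Polycomb, held 30 of the genes in control cells. Of the 17 tested, 13 rose and 3 fell (76.5% and 17.6%), with 41.2% and 24.5% of all genes in that state. The largest of these rises was ZNF648 (1.30), at a siNTC5 mean of 0.51 CPM, where counts are few. ZNF22 rose from 26.6 ± 2.31 to 42.4 ± 2.47 CPM (0.67 ± 0.07), and ZNF202, a SCAN protein known as a repressor of lipid genes, from 33.9 ± 1.42 to 40.9 ± 2.29 CPM (0.27 ± 0.07). The falls were ZNF862, ZNF467 and ZNF32. ZNF862 was wholly in H3K27me3 before and after knockdown, while ZNF467 was wholly inside before and wholly outside after. The number of genes in H3K27me3 domains was 30 in control and 23 in knockdown cells, beside 6284 and 5794 of all genes with a position.

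H3K9me3 covered more of the genes after knockdown, 96 in place of 79 (42.5% and 35.0% of the 226). Over all genes with a position it also covered more, 3656 in place of 2590 (13.2% and 9.38%). Newly covered over at least 50% of their body were 16 genes, of which 12 were tested, 8 rose and 2 fell, with a median of 0.40. The largest of these rises, ZNF648 (1.30), came from a siNTC5 mean of 0.51 CPM, where counts are few. Over all genes newly under H3K9me3, 36.6% rose and 33.1% fell, with a median of 0.002. ZNF189 rose from 16.8 ± 1.14 to 26.9 ± 2.04 CPM (0.68 ± 0.08), and ZNF621, ZNF620 and ZNF713 (0.57 ± 0.13) rose too. The 2 falls were ZNF25 and ZNF658, both among the 10 largest. With 1 list per siRNA, the gain has no replicate check.

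Lamin B1 domains of control cells, the parts of the genome next to the nuclear lamina, held 28 of the genes, and 25 of these lay in H3K9me3 as well. Only 9 of the 28 were tested, 5 higher and 1 lower (55.6% and 11.1%, beside 48.5% and 17.5% of all genes in control lamin B1 domains). In knockdown cells 23 stayed inside, and 5 had lost lamin B1 over at least 50% of their body: ZNF300, ZNF670, ZNF695, ZNF496 and ZNF831. Of all 3581 genes in control lamin B1 domains, 2099 stayed inside and 1442 lost lamin B1 by the same measure, a larger share lost than here. ZNF300, ZNF670 and ZNF695 rose and ZNF496 fell, while ZNF831 had 33 counts in the 8 libraries and was not tested. ZNF300 had to differ once it entered the test, and it is counted among these rises and among the 5 genes called higher above. By their covered share, ZNF300 and ZNF695 went from 100% to 0%, ZNF670 from 91.4% to 0% and ZNF496 from 100% to 36.5%. Of the 23 that stayed, 5 were tested: ZNF26 (0.87) and ZNF268 (0.73 ± 0.09) rose, and ZNF84 (-0.16), ZNF595 (-0.16) and ZNF248 (-0.11) were not called. Over all genes, 50.4% of those that kept lamin B1 rose and 49.1% of those that lost it.

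**Figure D3:**
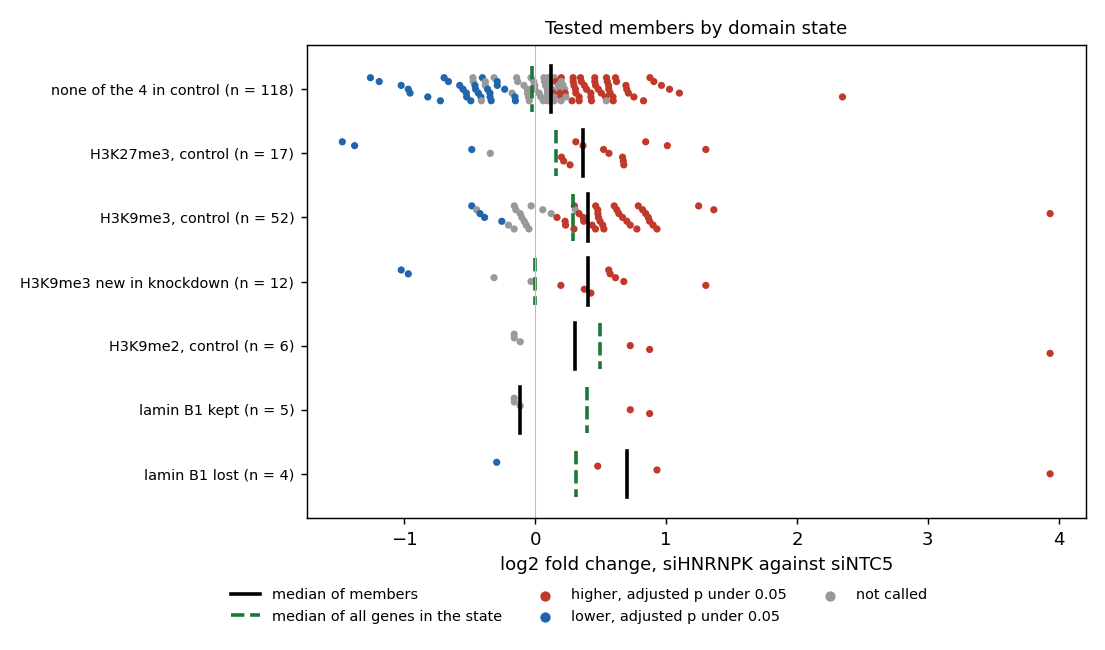
Log2 fold change of the tested genes by domain state, each point 1 gene, red higher, blue lower and grey not called. Black bars are medians of these genes and green dashed bars medians of all tested genes in that state; the black bar is at 0.40 for H3K9me3 in control cells and at 0.12 for genes under 50% in each of the 4 lists. A gene can stand in more than 1 state.

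The cluster near the end of chromosome 12 (132918306 to 133214832) lay wholly in lamin B1, H3K9me2 and H3K9me3 domains, and held genes that rose and genes at 0 counts. ZNF26 read 6.46, 5.93, 5.86 and 7.12 CPM in siNTC5 and 10.2, 11.8, 14.1 and 10.6 CPM in siHNRNPK. ZNF268 read 13.2, 16.4, 14.3 and 16.04 CPM and 26.6, 23.4, 25.0 and 24.6 CPM. The groups of both genes were apart, and ZNF84, which lies between them, was not called (20.0 ± 2.14 against 17.8 ± 1.79 CPM). ZNF10 (KOX1), whose KRAB domain is widely used as a repressor in genome engineering, ZNF605 and ZNF891 were at 0 counts in all 10 libraries, and ZNF140 had 1 count in all. Each zero allows up to 3 counts per library. Whether these zeros come from low RNA or from the counting was not tested.

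Some genes with few or no counts in the 8-library table had many counts in Scramble. Of the 41 genes not tested, 33 had at most 34 counts in a Scramble library, but 8 had at least 100 counts in both Scramble libraries, from 106 to 2752. ZNF197 had 2668 and 2752 counts there and 0 in each of the 8 libraries. ZNF436 had 1071 and 998, and ZNF35 702 and 642, again beside 0 in all 8. ZNF251 had 1517 and 1479 beside 2 in all 8, and ZNF707, ZNF117, ZNF502 and ZNF852 were the others. The limit of 100 counts was chosen after the data were seen. The tables were made separately, and what differed between them was not tested, so for these 8 genes the 8-library zeros cannot be read as absence. ZNF117 had 15, 21, 15 and 10 counts in siNTC5 and 2, 0, 3 and 0 in siHNRNPK, a ratio of 0.115 (exact 95% interval 0.036 to 0.284, counting error only). It did not pass the filter over 8 libraries. In the TruSeq libraries alone it was called lower (-3.53, adjusted p = 0.002623). There ZNF117 entered the test through the siNTC5 libraries and had to differ, so that call adds nothing to its counts.

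This bears on how clusters and states are read. In the chromosome 3 cluster at 44431705 to 44737083, 7 genes held 1 tested gene, ZNF445, which guards imprinted loci and was not called (0.06). ZNF197, ZNF35, ZNF502 and ZNF852 of that cluster are among the 8, while ZNF501 and ZNF660 had 0 to 2 counts in every library of both tables. In the chromosome 4 cluster at 53321 to 499156, ZNF141, ZNF718 and ZNF732 had at most 10 counts in any library, beside ZNF721, the top rise. Among tested genes, ZNF496, ZNF322 and ZNF623 were at least 4 times higher in Scramble, and ZNF496 was the only one of them called in the knockdown. Of the 25 genes in lamin B1 with H3K9me3, 8 were tested, 5 rose and 0 fell (62.5% and 0%, beside 62.3% and 4.35% of all genes in that state), and none of the other 17 was among the 8. ZNF300, which had to differ, is among those 5 rises. Of the 48 in H3K9me3 with neither lamin B1 nor H3K27me3, 41 were tested, 27 rose and 3 fell (65.9% and 7.32%, beside 43.3% and 23.8% of all genes in that state), and 5 of the 7 not tested were among the 8.

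**Figure D4:**
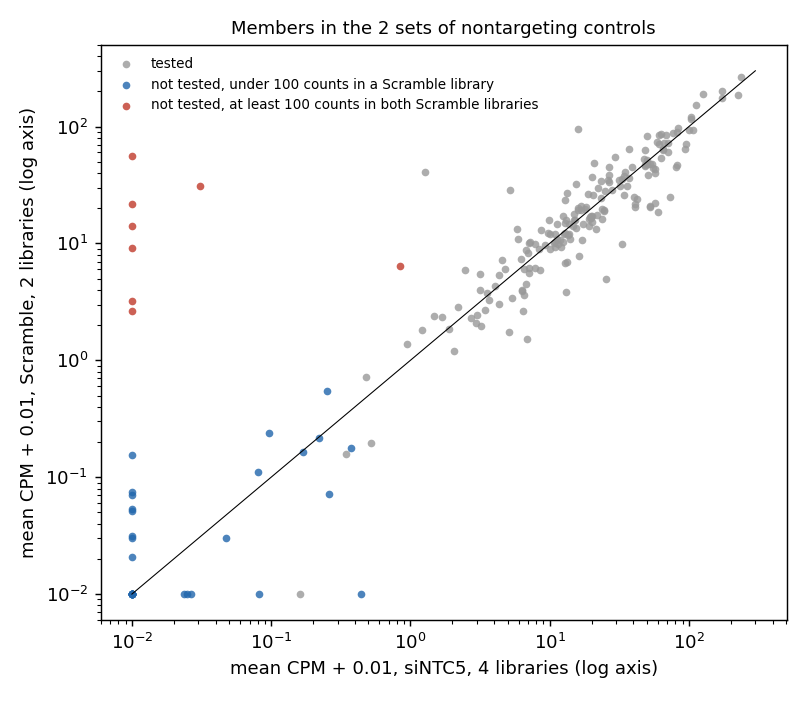
Mean CPM plus 0.01 of the 226 genes in Scramble (2 libraries) against siNTC5 (4 libraries), both axes log, the line marking equality. Red points, 8 genes not tested, stand high on the Scramble axis, 6 of them at 0 CPM in siNTC5; blue points are low in both.

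On chromosome 19, of 242 zinc finger genes, 152 were tested, 94 rose (61.8%) and 10 fell (6.58%), with a median of 0.45. Of those, 162 lay in control lamin B1 domains, against 28 of the 226 elsewhere, and 199 in H3K9me3, against 79. For genes under 50% in each list the medians were 0.12 for the genes outside chromosome 19 and -0.02 for the 35 tested on it. None of these differences was tested.

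RefSeq promoters were at hand for 186 of the 226. The median number of CpG in the 250 upstream bases was 18 in genes that rose, 25 in those that fell, 23 in those not called and 12 in those not tested, beside 21 over all tested genes and 16 on chromosome 19. CCCTCCC on either strand was found in 21.8% of the genes that rose, 32.3% of those that fell and 37.0% of those not called, beside 30.2% of all tested genes and 23.6% of all promoters. These are descriptions of a window, with no test.

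The machinery that KRAB zinc finger proteins recruit did not move in one direction. Of 25 genes listed for it, 23 were tested, 7 rose and 8 fell (35.5% and 36.1% of all genes), with a median of -0.02. TRIM28, the corepressor itself, read 799 ± 24.4 and 843 ± 51.8 CPM and SETDB1 90.1 ± 7.25 and 88.5 ± 4.33, and neither was called. HDAC1, a histone deacetylase, fell from 310 ± 14.6 to 198 ± 9.70 CPM (-0.65 ± 0.04), and ATRX, a chromatin remodeller found at H3K9me3, from 109 ± 7.35 to 70.3 ± 1.23 CPM (-0.62 ± 0.05). The groups of both were apart. EHMT2, an H3K9me2 writer, had 0 to 6 counts in the 8 libraries and 5911 and 5386 in Scramble, and DAXX 9 to 41 beside 4556 and 4242, so neither is read here.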

How the data were processed

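Gene counts from 10 RNA libraries of HCT116 cells and 7 ChIP domain lists were used. Members and gene lists were chosen with earlier results of these data known. The authors deposited whole-number counts per gene symbol, made for the 8-library table with STAR 2.7.1a and featureCounts (Subread 2.0.6) on hg38, per the submitters' processing notes. For Scramble those notes name STAR 2.7.1a, featureCounts and DESeq2 with both hg19 and hg38. The annotation and the strand counted are not given in the sources used here. Each deposited domain carries a score by the authors whose unit and caller are not given in the sources used here. ChIP reads passed through bcl2fastq 2.20, fastp 0.23.2, Bowtie2 2.5.1 and deepTools 3.1.3, per the submitters' processing notes. Domain edges fall on 5 kb steps.

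For the 8 libraries, filterByExpr removed low counts, TMM set the scale, and edgeR 4.0.16 (limma 3.58.1, R 4.3.3) fitted quasi-likelihood models with terms for treatment and kit. Benjamini-Hochberg adjustment ran over 13933 genes, with calls at 0.05. DESeq2 1.42.0 was an alternative. CPM values are TMM-normalised. Simulated data used the mean counts and library sizes of this comparison. There 92 of 98 genes changed by a log2 fold change of 1 and 99 of 99 changed by 2 were called. Among the 13793 genes run, 8 unchanged genes were called. The simulation changed few genes and held no kit effect, unlike the real comparison, where 71.5% of genes were called. Its rates may therefore not hold there.

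Positions came from RefSeq (GRCh38.p14), matched for 97.7% of names and all 226 members, 224 by symbol and 2 by synonym. Named genes were the 10 largest rises and falls with groups that did not overlap and a mean log2 CPM of 1 or more, all tested members of the 3 clusters with most tested members, the member that changed most in each other cluster with 3 tested, the 5 lamin B1 genes that changed most, and corepressor genes past 0.5. Others are named for a domain state or their place. Libraries of the same number deviated together, their correlation over genes being 0.10, 0.42, 0.34 and 0.27 (replicate 1 first), and -0.19, -0.16, -0.28 and -0.25 once kit was removed. Libraries of the same number share a kit. Libraries of one group and kit differed by more than sampling noise. A description by KRAB motif was not run, since no protein sequences were used here. ChIP reads and inputs were not analysed here.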

Additional observations from a re-analysis of the deposited data

Results flagged for a closer look

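In 8 of 114 groups of 4 libraries of the named genes, 1 library stood apart from the other 3 by a gap above Dixon's critical share of the group's range. Chance flags about 1 in 20 groups. In siNTC5 these were HDAC1 in library 2 (331.1 CPM), ZNF395 in library 2 (94.63 CPM), ZNF597 in library 1 (11.15 CPM) and ZNF782 in library 3 (3.597 CPM). In siHNRNPK they were ZNF25 in library 2 (6.165 CPM), ZNF425 in library 2 (3.565 CPM), ZNF619 in library 3 (5.311 CPM) and ZNF783 in library 3 (12.39 CPM). ZNF425 was not called, and without siHNRNPK replicate 1, which is not that library, it was (0.73, adjusted p = 0.02651). ZNF783 lost its call without siHNRNPK replicate 4 (0.18, adjusted p = 0.1549) and without siHNRNPK replicate 1 (0.26, adjusted p = 0.06352).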

How the results depend on the processing

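The count of 127 genes called, 92 higher and 35 lower, stayed within 1.5 times under every alternative fit, from 98 (TruSeq libraries alone) to 133 (upper-quartile normalisation, 100 higher and 33 lower). Asking also for a change of 1 or more on the log2 scale left 13, with 8 higher and 5 lower. Leaving out each library gave 119 to 128 called, 86 to 93 higher and 33 to 36 lower for the knockdown, 105 to 129 for Scramble against siNTC5, and -2.25 to -2.13 for HNRNPK. A replicate block in place of kit gave 124 (89 higher, 35 lower) and -2.17 for HNRNPK (adjusted p = 1.783e-14), and ended the call of ZNF174 alone among the named genes. Without kit 107 were called, with the DESeq2 Wald test 120, and without the 3 tested genes at least 4 times higher in Scramble, chosen after the data were seen, 126. Upper-quartile scaling moved the median of all genes to 0.03, no filter to 0.07. Upper-quartile scaling split the Scramble comparison 51 higher to 75 lower, in place of 62 to 63. Genes that had lost lamin B1 numbered 9 by any overlap of the gene body and 3 by start site, in place of 5. Start sites were known for 186 of the 226 genes, and not for ZNF831, one of the 5. Of 1056 values of the 56 other named genes under alternatives, 1000 kept direction and call, 48 lost the call, 2 gained it and 6 turned. With Scramble added ZNF282 was at -0.058, ZNF629 at -0.034, ZNF668 at -0.218 and ZNF777 at -0.0553. With Ligation alone ZNF629 was at -0.020 and ZNF771 at 0.145. The cause was not tested. The KRAB motif description and its alternative were not run. Depth limits genes with few counts, such as ZNF300, ZNF474, ZNF648 and ZNF843, and the domain lists have no replicate.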
